A study of Mus musculus with 10 samples.

Results

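In 3T3-L1 cells that had differentiated for 240 h (10 days), 7845 regions outside transcription start sites were listed with more acetylation of histone H3 lysine 9 (H3K9ac) than at 0 or 24 h. Of these, 1018 regions (13.0%, 12.3 to 13.7%) lay at a gap under 1 kb from a peak of C/EBPβ or of the glucocorticoid receptor (GR) listed at 6 h, with overlap counted as a gap of 0. These 1018 regions, called early-factor regions here, were chosen by the deposited positions of the 240 h H3K9ac regions and of both 6 h factors. Their nearness to 6 h peaks is therefore a description and not a finding. The other 6827 regions of the 240 h list served for comparison.

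3T3-L1 is an established mouse fibroblast line that turns into adipocytes in culture. All cells were grown in high-glucose DMEM with fetal bovine serum, penicillin and streptomycin and were differentiated by a standard protocol, whose hormones the labels do not name. Chromatin immunoprecipitation with sequencing (ChIP-seq) gave 1 library per target and time. They were C/EBPβ in undifferentiated cells (0 h) and 6 h after induction, GR at 6 h with 2 antibodies named, and H3K9ac at 0, 24 and 240 h. The lists held 10359 C/EBPβ peaks at 0 h, 20746 at 6 h, 4007 GR peaks, and 4429 and 1629 H3K9ac regions at 0 and 24 h. The read totals are not in these lists, so depth is unknown, and sites absent from a list may still be bound. With 1 library per group no value has a replicate error and no p-value was computed. Intervals are 95% intervals of counting error over the listed regions or peaks, which can share neighbours and so are not independent.

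C/EBPβ is a basic leucine zipper transcription factor that is present early in adipocyte differentiation and precedes the factors that maintain the fat cell. GR is a nuclear receptor that binds DNA after it has bound a glucocorticoid, and glucocorticoids are a common part of adipogenic mixtures. H3K9ac is placed on nucleosomes at active promoters and enhancers. A region of the 240 h list is thus acetylated in the mature cells, whereas the factor peaks beside it were recorded in the first hours.

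C/EBPβ was the factor near most early-factor regions. It lay near 837 of them without GR (82.2%, 79.8 to 84.4%), both factors lay near 149 (14.6%, 12.6 to 16.9%) and GR alone lay near 32 (3.14%, 2.24 to 4.40%). The C/EBPβ list of 6 h is also the longer one, with 20746 peaks against 4007 for GR. Over these whole lists 13.0% of C/EBPβ peaks overlapped GR, and 66.6% of GR peaks overlapped C/EBPβ. C/EBPβ without GR was thus the most frequent kind in the whole 6 h lists too. A factor peak overlapped 800 regions (78.6%) directly, and 218 (21.4%) had peaks only beyond their borders. One 6 h peak was listed for 796 regions, 2 for 179, 3 for 33, and 4 or more for 10. Neighbouring regions can share a peak, and 135 of the 1018 (13.3%) did so. At the limit of the rule, 20 regions had their nearest peak at a gap of 900 to under 1000 bp, with a median width of 1550 bp and a median read count of 11. The 27 regions at 1000 to under 1100 bp, just outside, had medians of 1450 bp and 11. In undifferentiated cells C/EBPβ was listed near 7 of the former and 2 of the latter. None of the 1018 regions overlapped a region in the authors' list of input bias.

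The same rule was applied to the H3K9ac regions of 24 and 0 h. It gave 640 of 1629 regions at 24 h (39.3%, 36.9 to 41.7%) and 1103 of 4429 at 0 h (24.9%, 23.7 to 26.2%). Both shares were above the 13.0% of the 240 h list. GR lay near 181 of the 1018 regions at 240 h (17.8%), near 54.1% of the 640 at 24 h and near 15.8% of the 1103 at 0 h. The 24 h share exceeded the 240 h share by 36.3 points (31.7 to 40.7). The 0 h share differed from it by -2.00 points (-5.20 to 1.17), an interval that includes 0. By its mix of early factors, though not by its share of the list, the 240 h set thus lay close to the 0 h set. The bars of factor classes show this mix.

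**Figure D1:**
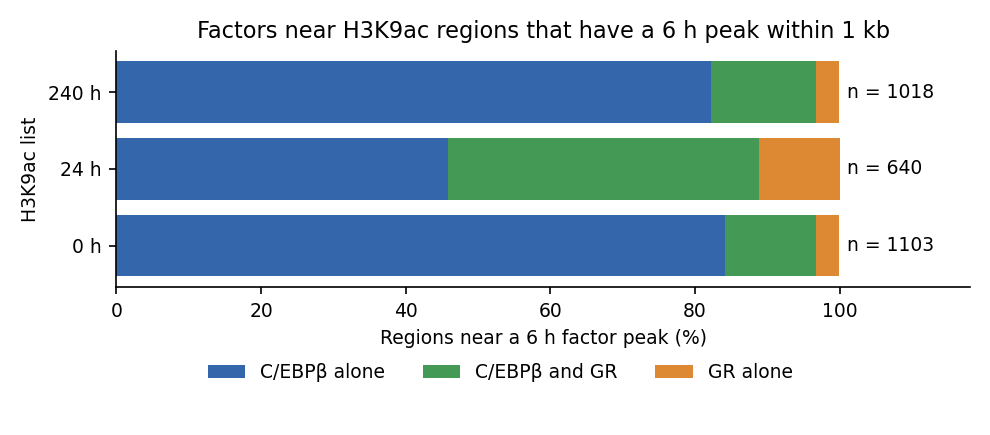
Horizontal bars give the percent of H3K9ac regions near a 6 h factor peak that were near C/EBPβ alone, both factors or GR alone, for the 240, 24 and 0 h lists (n at the right of each bar). C/EBPβ alone takes 82.2% at 240 h and 84.2% at 0 h, against 45.9% at 24 h.

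A C/EBPβ 6 h peak was called kept when it overlapped a C/EBPβ peak of undifferentiated cells by at least 1 bp, and new when it did not. The 0 h list was not used to choose the regions. Near the early-factor regions lay 1033 C/EBPβ 6 h peaks, of which 435 were kept (42.1%, 39.1 to 45.1%) and 598 were new (57.9%). Over all 20746 peaks of the 6 h list, 35.7% were kept. Peaks near the early-factor regions exceeded those not near any 240 h region (35.3%) by 6.80 points (3.75 to 9.91). Peaks that overlapped a region were kept in 43.8% of cases and those beside it in 35%, a difference of 8.75 points (1.10 to 15.9). Whether GR was on the peak went with no difference larger than counting error. Of the 134 peaks with GR 44.8% were kept and of the 899 without it 41.7%, a difference of 3.06 points (-5.72 to 12.1). New peaks without GR were the most frequent kind, 524 of 1033 (50.7%), followed by 375 kept without GR (36.3%), 74 new with GR (7.16%) and 60 kept with GR (5.81%).

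Kept shares differed widely with height, the authors' whole-number read signal at a peak. Peaks of the 6 h list were therefore ranked by height and put into 4 classes of equal number, so that peaks tied at a limit fall on either side. For the weakest class, of heights 12 to 14, 24.0% of peaks near early-factor regions and 16.6% of the others were kept, a difference of 7.45 points (2.04 to 13.8). The second class, of heights 14 to 18, had 30.8% and 23.9%, a difference of 6.92 points (1.26 to 13.2). In the third class the difference was -2.16 points (-7.81 to 3.89) and in the strongest, with 67.9% and 64.0%, it was 3.90 points (-1.56 to 8.95). The excess of kept peaks was thus seen in the 2 weaker classes, and the intervals of the 2 stronger ones include 0. Whether the classes differ from each other was not tested.

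The H3K9ac lists of the other times were set beside this. Of the C/EBPβ 6 h peaks near 24 h regions 28.2% were kept, and of those near 0 h regions 52.2%. Leaving out the 3 peaks near both lists, the 240 h share exceeded the 24 h share by 13.9 points (9.20 to 18.4). Leaving out the 1 peak near both, it was below the 0 h share by 10.1 points (difference -10.1, -14.2 to -5.90). Median heights of these peaks were 19 near 240 h regions, 22 near 24 h regions and 19 near 0 h regions. The order of the 3 lists was the same in all 4 height classes, with kept shares of 67.9%, 49.6% and 81.3% in the strongest class and of 24.0%, 5.45% and 27.7% in the weakest. The intervals of 240 and 0 h overlap in the 2 weaker classes. They were 18.7 to 30.3% and 22.5 to 33.5% in the weakest, and 25.3 to 36.9% and 32.9 to 44.2% in the second. The early-factor regions of 240 h thus lay between the other lists in how often C/EBPβ was already there before induction.

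**Figure D2:**
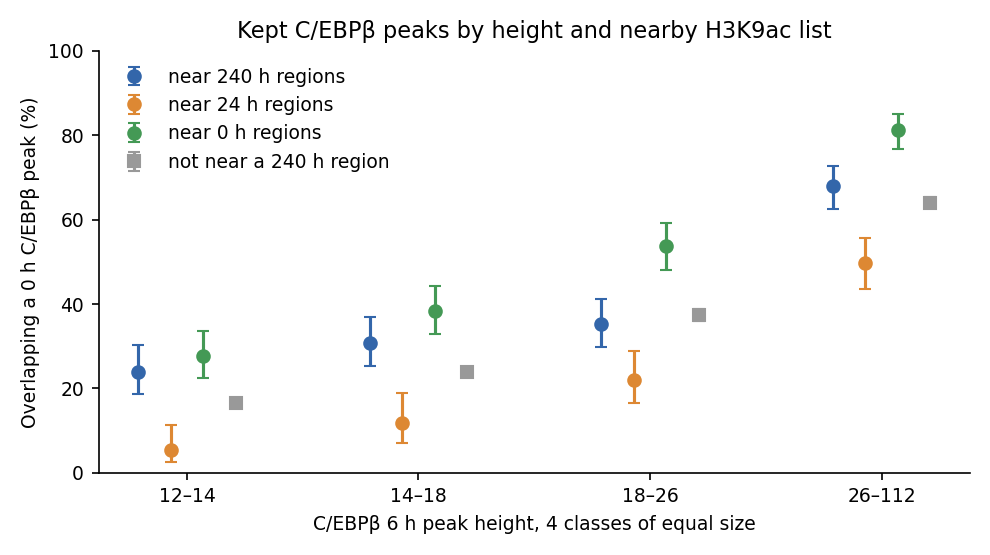
Points give the percent of C/EBPβ 6 h peaks that overlapped a C/EBPβ 0 h peak, with 95% Wilson intervals, by class of peak height and by the H3K9ac list within 1 kb; squares are peaks not near a 240 h region. In every class the 240 h points lie above those of 24 h and below those of 0 h. In the 2 weaker classes the intervals of 240 and 0 h overlap.

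Counted by region, 408 early-factor regions (40.1%) had only kept C/EBPβ peaks, 529 (52%) only new ones, 49 (4.81%) both kinds and 32 had GR alone. Median widths were 1850 bp for kept alone, 1800 bp for new alone and 1775 bp for GR alone, and the median read count was 12, 12 and 11.5. A false discovery rate (FDR) of the acetylation call written as 0 was listed for 63.2% of the regions with kept peaks alone and 56.5% of those with new peaks alone, a difference of 6.71 points (0.374 to 12.9), where 45.3% of all 240 h regions had it. The classes were thus close in width and read count and differed in this share. The widest class was that with both kinds, at a median of 2250 bp (1750 to 2950 bp), and a wider region has room for more peaks. GR lay near 59 of the 408 regions with kept peaks (14.5%) and near 75 of the 529 with new ones (14.2%). Kept peaks near the regions were higher than new ones, with median heights of 26 and 17, and away from 240 h regions the medians were 24 and 16.

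A C/EBPβ 0 h peak lay within 1 kb of 460 early-factor regions (45.2%, 42.2 to 48.3%) and of 155 of the other 240 h regions (2.27%, 1.94 to 2.65%), against 7.84% over the whole 240 h list. The difference of 42.9 points (39.9 to 46.0) is largely set by the rule. Most 0 h peaks recur in the 6 h list that chose the regions, and 28.7% of the whole 0 h list do not. Of the 615 regions of 240 h near a 0 h peak, 460 (74.8%, 71.2 to 78.1%) were early-factor regions. Near the early-factor regions lay 455 C/EBPβ 0 h peaks, and 21 of them (4.62%) were not listed at 6 h. The rule also sets this low share, since a 0 h peak that recurs brings its region into the set. Near any 240 h region the share not listed at 6 h was 28.1% (170 of 604), close to the 28.7% of 0 h peaks elsewhere, with a difference of -0.599 points (-4.16 to 3.22). C/EBPβ sites lost from the list by 6 h were therefore as frequent near 240 h regions as in the remainder of the 0 h list, within counting error.

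GR near the early-factor regions mostly sat on C/EBPβ. Of the 178 GR peaks there, 77.0% overlapped a C/EBPβ 6 h peak, against 66.6% of all GR peaks. The rule admits a GR peak whether or not C/EBPβ is there. The difference from GR peaks not near a 240 h region (66.1%) was 10.9 points (3.99 to 16.6). A C/EBPβ peak of undifferentiated cells lay under 34.3% of these GR peaks and under 25.9% of those elsewhere, a difference of 8.41 points (1.69 to 15.8). Of the 149 regions near both factors, 140 (94.0%) had a GR peak that overlapped a C/EBPβ peak, so the factors seldom lay apart there.

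Seen from C/EBPβ, GR was no more frequent than in the whole list. Of the 1033 C/EBPβ 6 h peaks near the regions 13.0% overlapped GR, and of all C/EBPβ 6 h peaks also 13.0%, and the difference from peaks elsewhere was -0.0753 points (-2.05 to 2.16). Near 24 h regions the share was 41.7%, above that near 240 h regions by 28.7 points (difference of 240 h minus 24 h -28.7, -33.0 to -24.4). The C/EBPβ peaks with GR were the high ones. Their median height was 34.5 (30 to 40) near early-factor regions and 27 (27 to 28) elsewhere, and without GR the medians were 18 and 17. GR peaks near the regions had a median height of 16 (15 to 17), the same as the median of the whole GR list, and a range of 12 to 74. The highest GR peak of the list, of height 128, thus lay away from these regions. At the 32 regions with GR alone the nearest C/EBPβ 6 h peak lay at a median gap of 15308.5 bp, with 10 of them at a gap under 5000 bp, and none of the 32 was near a C/EBPβ 0 h peak.

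Higher C/EBPβ peaks lay near 240 h regions somewhat more often than low ones. The share of C/EBPβ 6 h peaks near a region was 4.01% (3.51 to 4.58%) in the weakest height class, 4.57% and 5.15% in the middle classes and 6.19% (5.56 to 6.88%) in the strongest. Of the 762 peaks with a height of 50 or more, 64 (8.4%, 6.63 to 10.6%) lay near one. The median fold enrichment given by the authors was 9.20 (8.93 to 9.38) near the regions and 8.60 (8.57 to 8.67) over the whole list. Peaks near the regions were slightly narrower, with a median of 288 bp (282 to 296 bp) against 300 bp (298 to 302 bp) over the list. For GR the median fold enrichment was 7.70 (7.22 to 8.06) near the regions and 7.90 (7.77 to 7.95) over its list. These values use the lists that chose the regions and are given as a description.

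The early-factor regions were wider and carried more reads than the other 240 h regions. Their widths ran from 750 to 20900 bp with a median of 1850 bp (1750 to 1950 bp), and those of the other regions from 650 to 18100 bp with a median of 1600 bp (1550 to 1600 bp). A wider region meets a peak more easily, and the rule thus favours width. Over 4 classes of width, the share of regions near a factor was 10.0% for 650 to 1150 bp, 12% for 1200 to 1600 bp, 13.3% for 1650 to 2500 bp and 17.0% for 2550 to 20900 bp. Counted per Mb of sequence searched (the region and 1 kb on each side), the 4 classes held 41.6, 44.0, 40.8 and 36.8 peaks of 6 h, with the fewest in the widest class.

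The average read count is the authors' rounded read signal of a region. It had a median of 12 in the early-factor regions, with quartiles of 10 and 14 and a range of 8 to 38, and a median of 11 in the others, with quartiles of 10 and 12 and a range of 8 to 45. The upper tail differed more than the middle. A read count of 15 or more was listed for 218 early-factor regions (21.4%, 19 to 24.0%), for 10.5% of the other regions and for 11.9% of the whole list. The difference between the first pair was 10.9 points (8.39 to 13.6). Among the early-factor regions the share was 21.1% (18.5 to 24.0%) near C/EBPβ alone, 24.2% (18.0 to 31.6%) near both factors and 15.6% (6.86 to 31.8%) near GR alone, with intervals that overlap. It was 23.5% where C/EBPβ was also listed at 0 h and 19.7% where it was not, a difference of 3.76 points (-1.29 to 8.89). The FDR was 0 in 59.6% of the early-factor regions, 43.1% of the others and 45.3% of the whole list. Read count and width go together. Width was not matched within a class, and the widest class ran from 2550 to 20900 bp. The difference was taken within width classes with this limit. It was 3.01 points (0.903 to 6.58) in the narrowest class, 6.90 (2.55 to 12.4) and 6.16 (1.84 to 11.4) in the middle classes and 16.4 points (10.8 to 22.3) in the widest, where 41.5% of early-factor and 25.1% of other regions had 15 reads or more.

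Seen from the whole list, the share of 240 h regions near an early factor was 7.98% (6.64 to 9.58%) at read counts of 8 and 9. It was 12% at 11, 21.3% (18.5 to 24.4%) at 15 to 19 and 31.2% (25 to 38.1%) at 20 to 45. The share at 13 and 14, 15.2%, was not above the 16.1% at 12. Median width went from 1400 bp at 8 and 9 reads to 3800 bp at 20 or more. GR lay near 1.83% of the first and 6.35% (12 of 189) of the last. Kept peaks were not detectably more frequent at strong regions. Of the 235 C/EBPβ 6 h peaks near early-factor regions with 15 or more reads 44.7% were kept, and of the 819 near weaker regions 41.9%. The difference was 2.80 points (-4.29 to 10.0). Peaks near regions of both kinds count in both groups, which the interval does not take into account.

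**Figure D3:**
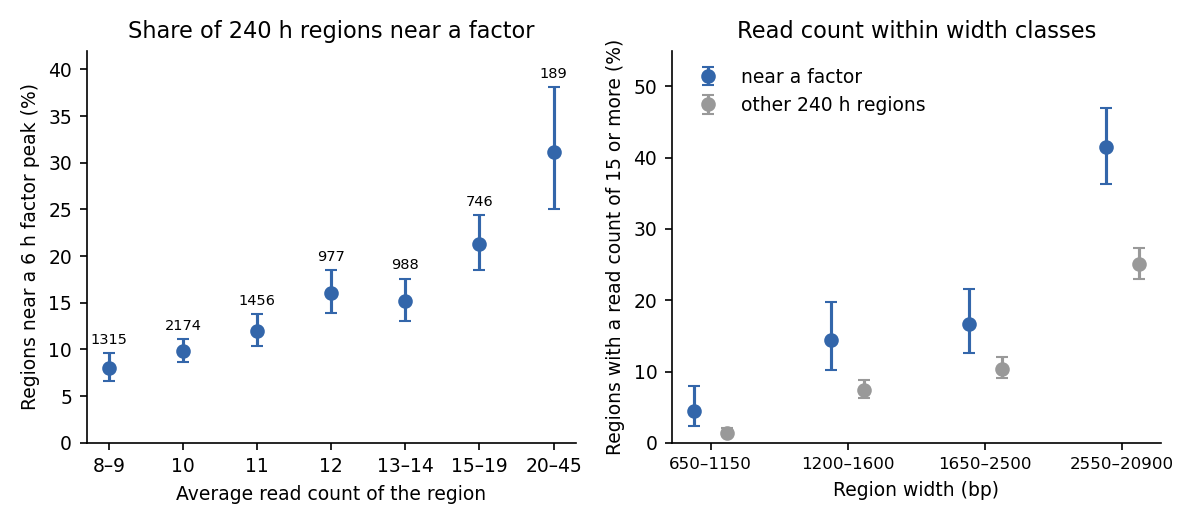
Left, the percent of 240 h regions within 1 kb of a 6 h factor peak by average read count, with the number of regions above each point; right, the percent of regions with a read count of 15 or more by width class, for early-factor and other regions. Bars are 95% Wilson intervals; the share near a factor is 7.98% at 8 and 9 reads and 31.2% at 20 to 45.

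Within a region, factor peaks lay toward the centre. The rule counts a peak inside a region wherever it lies, so position was not used to choose. Midpoints of 773 C/EBPβ 6 h peaks fell inside a region, and 58.3% (54.8 to 61.8%) of them lay in the central 50% of its width. The share was 64.3% (55.8 to 72.1%) for 129 GR midpoints and 55.6% (51.1 to 60.0%) for 475 C/EBPβ 0 h midpoints, which are spread over all 240 h regions. Kept and new C/EBPβ 6 h peaks gave 56.7% and 59.6%, and peaks above and up to the median height 57.6% and 59.1%, all with overlapping intervals. Of 10 equal bins across the region, the outermost held the fewest C/EBPβ 6 h midpoints, 7.24% at the lower and 6.08% at the upper border. GR midpoints were more central at 240 h than in 24 h regions, where 51.3% lay in the central 50%, a difference of 13.1 points (2.40 to 23.1). In regions of at least 1500 bp the shares were 63.4% and 56.4%, and the difference of 7.02 points (-5.96 to 19.2) had an interval that includes 0. The 24 h regions were the narrower ones, with a median of 1300 bp against 1600 bp at 240 h. For C/EBPβ 6 h the difference of 240 h minus 24 h over all regions was 2.54 points (-3.37 to 8.49). In 0 h regions 62.1% of GR and 58.9% of C/EBPβ 6 h midpoints lay in the central 50%. The differences of 240 h minus 0 h were 2.24 points (-9.52 to 14.0) and -0.534 points (-5.32 to 4.24). A central position was thus seen in the 0 h regions as well.

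Peak density fell off at the border of the regions. Inside 240 h regions there were 46.6 C/EBPβ 6 h midpoints per Mb (exact Poisson 95% interval 43.4 to 50). At 0 to 500 bp outside there were 19.7 and at 500 to 1000 bp 14.4 (11.6 to 17.6). At 2 to 5 kb the density was 21.3 (19.7 to 23.0), and at 20 to 50 kb it was 15.3. C/EBPβ 0 h gave 28.6 inside, 7.42 at 500 to 1000 bp and 12.5 at 2 to 5 kb. GR gave 7.78, 1.58 and 4.46. All 3 factors had their lowest density among these distances at 500 to 1000 bp from a region, although the intervals for C/EBPβ there include the densities at 20 to 50 kb. Start sites were not removed from the sequence around the regions, although the H3K9ac lists leave them out.

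**Figure D4:**
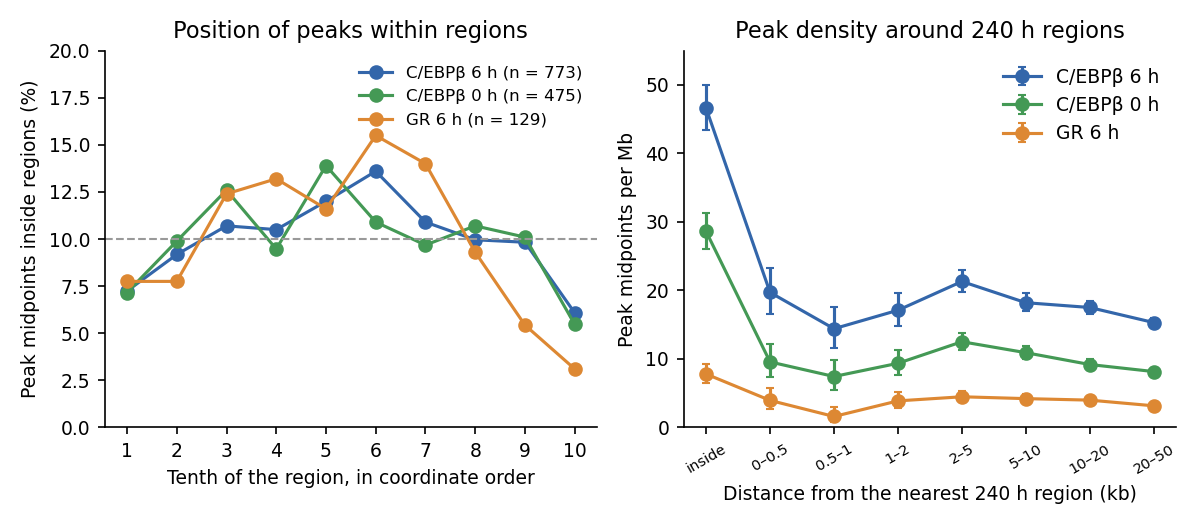
Left, the percent of peak midpoints in each of 10 equal bins across the 240 h region that holds them, with the even share of 10% as a dashed line; right, peak midpoints per Mb by distance from the nearest 240 h region, with exact Poisson 95% intervals. C/EBPβ 6 h density is 46.6 per Mb inside the regions and 14.4 per Mb at 0.5 to 1 kb.

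The early-factor regions were somewhat more isolated than the others. The median gap to the nearest other 240 h region was 8725 bp (6900 to 11500 bp), against 5000 bp (4600 to 5500 bp) for the remaining regions, and 51.2% and 59.9% had one at a gap under 10000 bp, a difference of -8.67 points (-12.0 to -5.40). Regions of earlier times were far away in most cases. A 24 h region lay at a gap under 1000 bp from 6 early-factor regions (0.589%) and from 10 others (0.146%), and a 0 h region from 2 and 22. Of the C/EBPβ 6 h peaks near early-factor regions 3 were also near a 24 h region and 1 was near a 0 h region. A region enters a list by exceeding its own signal at another time, and this way of listing can itself keep the 3 times apart.

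The regions named next were taken by fixed ranks, with coordinates on mm8 as deposited. The early-factor region with the highest read count lay at chr19:40404250-40411400 with a read count of 38, the second of all 240 h regions. It was 7150 bp wide and held 1 new C/EBPβ peak of height 17, at position 0.870 of its width counted from the lower coordinate. The next were chr19:44473500-44478650 with 33 and chr19:44506950-44513800 with 32. The first of them held a new C/EBPβ peak of height 24 that a GR peak of height 14 overlapped, and the second a new C/EBPβ peak of height 24. A region at chr6:51992850-51995150, also with 32, held a kept C/EBPβ peak, of height 14 (the 0 h peak under it had 15). The fifth, chr10:12512450-12518550 with 31, held a new peak of height 19. The C/EBPβ peaks of these 5 regions had heights of 14 to 24, around the median of 19 near all early-factor regions. Of the 5 regions 4 had new peaks alone, as had 52% of the 1018.

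Regions beside the highest C/EBPβ peaks had read counts of 11 to 18. The highest C/EBPβ 6 h peak near any of them, of height 95, was kept (height 48 at 0 h), carried GR of height 32, and lay at chr12:8458907-8459236 in the interval between 2 regions. The regions, chr12:8453100-8458650 and chr12:8459750-8461350, had read counts of 12 and 18. The first of them also held the highest GR peak of the set, of height 74, on a new C/EBPβ peak of height 13. The region chr6:115630350-115633350 had a read count of 11 and a kept C/EBPβ peak of height 90 with GR of height 20. A kept C/EBPβ peak of height 88 lay 236 bp beyond chr6:17055150-17059000, which had a read count of 13. At chr2:72166450-72167850, with a read count of 15, a kept peak of height 81 had no GR. All 4 of these C/EBPβ peaks were thus kept. In the strongest height class, of heights 26 to 112, 67.9% of peaks near the regions and 64.0% of those elsewhere were kept.

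The other regions with the highest GR peaks were mixed. At chr7:119750950-119753950 a GR peak of height 62 overlapped a new C/EBPβ peak of height 27, a second new one of height 15 lay beside it, and the read count was 9. A GR peak of height 51 at chr11:35593693-35594584 lay on a kept C/EBPβ peak of height 38 at the border of chr11:35591800-35594450 and was within 1 kb of chr11:35594700-35596800 too. Those regions had read counts of 16 and 10. The fifth, chr4:11050200-11051750, combined a high GR peak of 49 with a low new C/EBPβ peak of 15, both near its centre, and had a read count of 25.

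Some regions held several peaks. The most, 5, were near chr2:148144350-148147950, where 3 new C/EBPβ peaks of heights 43, 27 and 35 and a kept one of 23 were spread along its 3600 bp and GR of height 25 sat on the first. Its read count was 13. Regions with 4 peaks included chr17:79845550-79847350, with 3 new C/EBPβ peaks and GR of height 44. They also included chr7:120836700-120837750, with 2 new C/EBPβ peaks of heights 49 and 16, each overlapped by GR. At chr6:54884950-54886650 a kept peak of height 50 and a new one of 60 each carried GR. The 3 widest regions had 1 or 2 peaks each. They were chr8:127711500-127732400, 20900 bp wide with 1 new C/EBPβ peak of height 24, chr9:65170000-65185250 with 1 of height 12, and chr6:88717750-88731050 with a kept peak of 23 and a new one of 13. Their read counts were 28, 24 and 29.

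**Figure D5:**
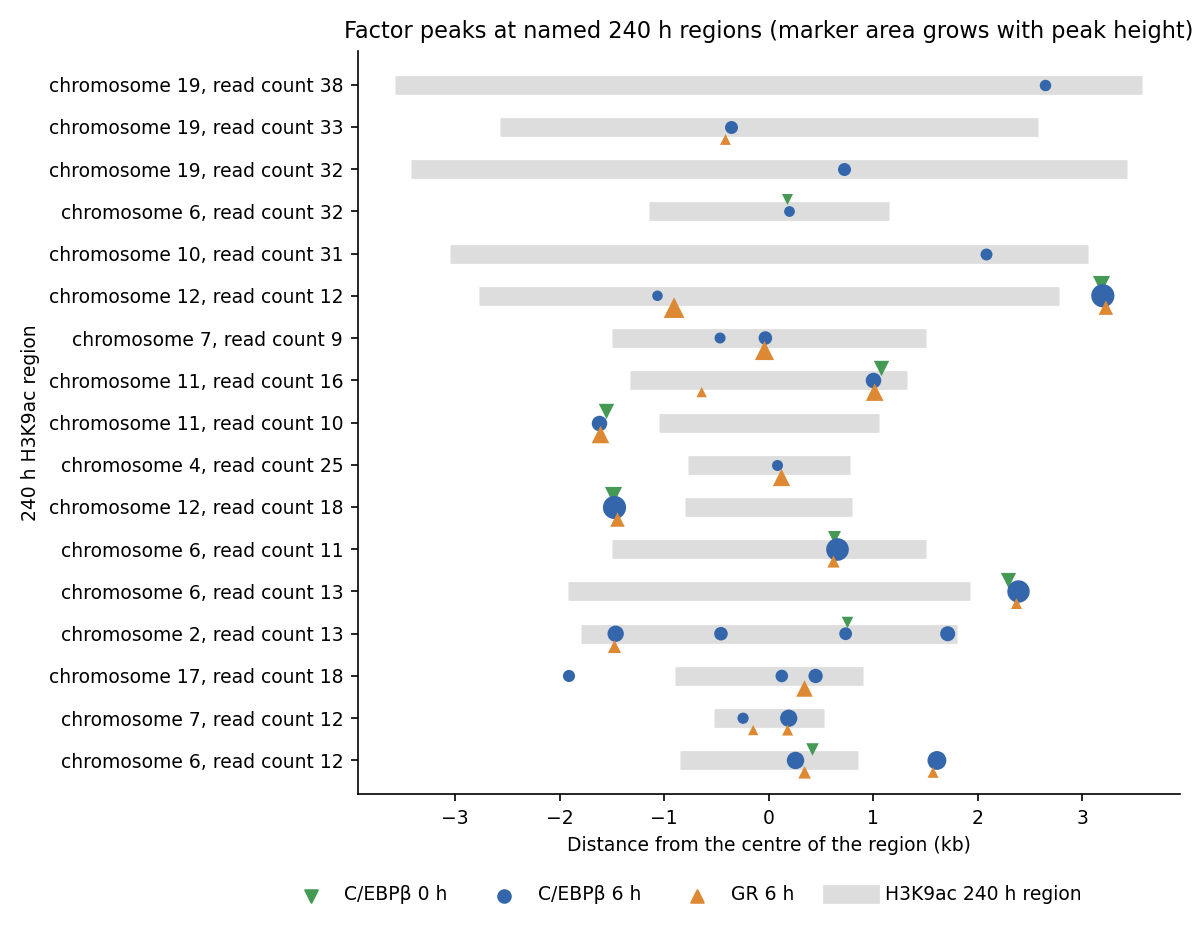
Grey bars are 17 of the named 240 h regions drawn to scale around their centres (kb; those up to 7150 bp wide that rank by read count or have 2 or more 6 h peaks), with markers at the midpoints of GR peaks and of C/EBPβ peaks of both times within 1 kb. The highest C/EBPβ 6 h peak, of height 95, lies outside both chromosome 12 regions.

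Early-factor regions were counted in 100 kb windows, and no expected count was computed. Another early-factor region lay at a gap under 10000 bp from 220 of the 1018 (21.6%, 19.2 to 24.2%). Of the 100 kb windows that held any, 678 held 1, 116 held 2, 29 held 3, 4 held 4 and 1 held 5. The densest, on chromosome 12 from 32600000 to 32700000, had 5 early-factor regions among 9 regions of 240 h, with 6 C/EBPβ 6 h peaks, 1 GR peak and 3 C/EBPβ 0 h peaks. Its early-factor regions had read counts of 10 to 20. The next by read count held 4 each. The window on chromosome 11 that starts at 35500000 had 2 GR peaks and 5 of C/EBPβ at 6 h. The window on chromosome 6 that starts at 94800000 had 1 GR peak and 3 of C/EBPβ at 6 h, but none of C/EBPβ at 0 h. None of the 3 windows held a 24 h region.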

How the data were processed

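ChIP-seq libraries of 3T3-L1 cells were grouped by the target and time in their titles. Per the labels' protocols, ELAND mapped 36 bp reads to mm8 (at most 2 mismatches). Reads that mapped to 1 place entered the lists, counted once per start position, which leaves repeats uncovered and limits the highest peaks. How peaks were called, and with what threshold, is not given in the sources used here. The authors deposited C/EBPβ and GR peaks with a fold enrichment (a ratio over an undescribed background) and a peak height, a read signal. The authors deposited H3K9ac regions outside start sites, called at 1 time relative to another, with an FDR, a q-value that is 0 for many regions, and an average read count, which is a read signal rounded to whole numbers. All values were used within a list only.

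An early-factor region was a 240 h H3K9ac region at a gap under 1000 bp from a 6 h peak. Shares have Wilson and differences of shares Newcombe 95% intervals, and medians have exact binomial intervals. They cover counting error only, and depth per library is unknown. Python 3.11.15, numpy 2.4.6, pandas 2.3.3, scipy 1.17.1 and matplotlib 3.10.9 were used. The overlap code was tested on simulated data. Named regions are the 5 highest by read count, by GR height, by C/EBPβ 6 h height and by number of peaks, the 3 widest, and the 3 densest 100 kb windows. The regions, the ranks and the alternatives were chosen with earlier results of these data known. The comparison of kept shares between H3K9ac lists by height class, that of central positions between lists, and that by read count were added after the values had been seen. The reference annotation at hand is of another build than mm8, so no genes or sequences are given for the regions. Input libraries were not analysed here.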

Additional observations from a re-analysis of the deposited data

How the results depend on the processing

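Under the alternatives other than the one added later, differences of shares had the same direction and the same call (an interval with or without 0) in 26 cases, came to include 0 in 2 and reversed in 1. The 26 include every alternative for nearness to a C/EBPβ 0 h peak, a difference largely set by the rule. All cases that changed were of the excess of kept C/EBPβ peaks. Of the shares, 30 stayed within their 95% interval and 15 moved out, and of the medians 19 stayed and 11 moved. No paired analysis was possible because each group is 1 library. Unknown depth limits every statement on peaks missing from a list.

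The excess of kept C/EBPβ peaks near early-factor regions over peaks elsewhere was 3.25 points (-0.856 to 7.53) with the peaks above each list's median height. It was 3.90 in the strongest height class and -2.16 in the third, where the direction was reversed. The cause was not tested. In a comparison added after the data were seen, the share of central GR midpoints at 240 h minus that at 24 h was 7.02 points (-5.96 to 19.2) in regions of at least 1500 bp, against 13.1 in all. Kept shares near the regions were 37.7% with the stronger peaks, where the 0 h list was also cut to its peaks above the median. A high 6 h peak over a low 0 h peak thus counted as new there. With the whole 0 h list the shares were 24.0%, 30.8%, 35.2% and 67.9% in height classes 1 to 4.

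The number of early-factor regions was 1997 with a gap under 5 kb, 575 with the stronger factor peaks and 607 with regions of FDR 0, by construction. With the 5 kb gap, 79.7% were near C/EBPβ alone, 50% were near a C/EBPβ 0 h peak and the median width was 1650 bp. With the stronger peaks, 5.22% were near GR alone, 10.4% near both and 37.2% near a C/EBPβ 0 h peak of the list cut in the same way. With regions of FDR 0, median widths were 2450 bp and, for other regions, 2300 bp, and median read counts 13 for both. Joining regions under 1000 bp apart gave median widths of 2100 bp and 1700 bp.

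In the narrowest width class the median read count was 10 for both sets and 38.7% of early-factor regions were near C/EBPβ 0 h. In the third class that share was 48.3%. In the widest class median read counts were 14 and 12. By fold enrichment, 57.3% of C/EBPβ 6 h peaks near the regions were above their list's median, against 52.2% by height. Within 5 kb, 1.45% of these peaks were also near a 24 h region and 1.36% near a 0 h region.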

Other observations

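The 155 other 240 h regions that lay near a C/EBPβ 0 h peak had no 6 h factor within 1 kb. Their median width was 2050 bp (1850 to 2300 bp) and 20% (14.5 to 27.0%) had a read count of 15 or more, close to the 21.4% of the early-factor regions. The C/EBPβ 0 h peaks near them alone had a median height of 16 (15 to 17), against 21 (20 to 23) for 0 h peaks near early-factor regions. The rule sets this contrast in large part, since a 0 h peak that recurs at 6 h brings its region into the set. Near all 240 h regions, the median height was 16 for 0 h peaks not listed at 6 h and 22 for those listed. Regions with the nearest 6 h factor at a gap of 1000 to under 10000 bp numbered 1849, and 10.1% (8.77 to 11.5%) of them had a read count of 15 or more. At a gap of 10000 bp or more the share was 10.7% (9.84 to 11.6%). These regions were narrower than the early-factor regions, with median widths of 1500 bp at the shorter and 1600 bp at the longer gaps against 1850 bp, and read count goes with width.

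The share of 240 h regions near an early factor differed between chromosomes. It was 21.6% (16.7 to 27.4%) on chromosome 3 and 7.66% (5.89 to 9.91%) on chromosome 11, and 3 of 50 on chromosome X. Chromosome 3 had 5.60 C/EBPβ 6 h peaks for each 240 h region, chromosome 11 had 1.44 and chromosome X had 9.64. The part of peak number in these shares was not tested.

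The intervals between neighbouring 240 h regions were searched for C/EBPβ peaks. Between regions up to 300 bp apart (573 intervals, 110 kb in all) lay 3 C/EBPβ 6 h midpoints, 27.3 per Mb (5.62 to 79.7). Between regions over 300 and up to 1000 bp apart (693 intervals) lay 12, or 27.8 per Mb (14.4 to 48.6). Both 95% intervals include the 46.6 per Mb found inside regions. Between regions 1 to 2 kb apart there were 11.8 per Mb (5.09 to 23.2) and at 2 to 5 kb apart 11.4 (7.43 to 16.7). This comparison was chosen after the data were examined.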
